A study of Mus musculus with 6 samples.

Results

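Collagen chains are the transcripts described here, in the inguinal white fat pad (iWAT) of the mouse, a depot under the skin that gains beige adipocytes in the cold. The members are all genes of the iWAT RNA-Seq table whose symbol is Col, a number, the letter a and a number, and 43 of the 16538 listed genes met that rule. Of these, 34 averaged 10 or more normalized counts over all samples and were among the 13855 genes tested for a difference between genotypes. The other 9 are given by their counts alone. Col9a1 was the only collagen chain of the annotation used here (GENCODE M21) without a row in the table.

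The samples were 3 of iWAT from control mice carrying a floxed Nrg4 gene (fl/fl, wt in the labels) and 3 from adipocyte-specific Nrg4 knockout (AKO) mice, in which the same allele was deleted by a Cre recombinase driven by the Adiponectin promoter. Both groups had been kept in the cold (8°C; 10 days in the labels), and RNA of 2 mice was pooled for each sample, so that p-values describe the spread between pools. No group kept at room temperature was part of the RNA-Seq, so the effect of cold itself on collagen transcripts was not measured. Nrg4 encodes neuregulin 4, a secreted factor of the EGF family, and the comparison asks how iWAT without adipocyte NRG4 differs from control iWAT.

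Collagens are trimers of alpha chains wound into a triple helix, secreted as the main structural proteins of the extracellular matrix. Fibrillar collagens form the fibrils of the fat pad's stroma. Type IV collagen forms the network of the basement membrane, which wraps each adipocyte and capillary. Type VI collagen builds beaded filaments that link the basement membrane to the fibrils around adipocytes, and fibril-associated, multiplexin, short-chain and transmembrane collagens modify or anchor these structures. In adipose tissue, fibroblasts and adipocyte progenitors make most of the fibrillar chains.

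The genes of type IV collagen lie in head-to-head pairs, with start sites side by side on opposite strands. The promoters of the Col4a1 and Col4a2 pair and of the Col4a5 and Col4a6 pair are shown because the ratio of their transcripts, given further on, varied little in the first and widely in the second, together with those of Col1a2 and Col3a1, partners in the abundant type I and III fibrils. Each sequence runs from 250 bases before to 50 bases after the start site on the gene's own strand (RefSeq, GRCm38.p6), and capitals mark motifs on either strand. One motif was CCAAT, the box bound by NF-Y. Another was TATAAA, the core of the box that places the start of transcription. The last was GGGCGG, the GC box bound by Sp1, and no matches overlapped in the printed windows.
Col4a1: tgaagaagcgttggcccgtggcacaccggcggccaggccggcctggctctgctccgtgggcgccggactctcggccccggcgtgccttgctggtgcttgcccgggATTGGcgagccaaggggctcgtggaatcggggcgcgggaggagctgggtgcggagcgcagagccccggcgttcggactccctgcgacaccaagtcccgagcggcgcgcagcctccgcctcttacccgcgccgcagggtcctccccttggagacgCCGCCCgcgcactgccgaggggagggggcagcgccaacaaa
Col4a2: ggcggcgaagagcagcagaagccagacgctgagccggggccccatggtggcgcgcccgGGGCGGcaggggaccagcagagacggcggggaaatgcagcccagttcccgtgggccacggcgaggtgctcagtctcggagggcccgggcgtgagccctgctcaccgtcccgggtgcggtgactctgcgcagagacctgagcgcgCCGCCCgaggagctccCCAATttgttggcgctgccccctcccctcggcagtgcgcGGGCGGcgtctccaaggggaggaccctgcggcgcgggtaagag
Col4a5: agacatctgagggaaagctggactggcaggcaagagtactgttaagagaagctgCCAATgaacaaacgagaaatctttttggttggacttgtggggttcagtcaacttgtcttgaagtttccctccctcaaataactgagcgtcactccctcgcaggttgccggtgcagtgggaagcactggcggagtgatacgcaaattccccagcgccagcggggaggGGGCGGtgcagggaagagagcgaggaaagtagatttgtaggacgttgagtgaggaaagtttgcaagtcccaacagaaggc
Col4a6: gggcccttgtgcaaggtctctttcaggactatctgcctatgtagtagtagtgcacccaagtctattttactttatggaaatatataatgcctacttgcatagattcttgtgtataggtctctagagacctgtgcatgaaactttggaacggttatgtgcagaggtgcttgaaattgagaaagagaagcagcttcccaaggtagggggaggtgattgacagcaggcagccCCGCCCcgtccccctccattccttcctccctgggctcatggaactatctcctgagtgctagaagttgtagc
Col1a2: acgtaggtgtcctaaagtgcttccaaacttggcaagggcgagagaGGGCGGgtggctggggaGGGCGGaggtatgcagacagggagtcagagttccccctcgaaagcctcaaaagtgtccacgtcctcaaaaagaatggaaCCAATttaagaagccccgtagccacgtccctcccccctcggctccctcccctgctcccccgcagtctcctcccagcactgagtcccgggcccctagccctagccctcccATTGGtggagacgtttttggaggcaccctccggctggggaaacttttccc
Col3a1: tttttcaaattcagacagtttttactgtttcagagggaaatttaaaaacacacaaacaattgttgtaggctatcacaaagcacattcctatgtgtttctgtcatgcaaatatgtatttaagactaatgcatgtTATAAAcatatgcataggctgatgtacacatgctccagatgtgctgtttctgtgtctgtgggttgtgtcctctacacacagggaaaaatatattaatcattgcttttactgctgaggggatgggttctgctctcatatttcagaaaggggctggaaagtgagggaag
The Col4a1 window is chr8:11312777-11313076 on the minus strand and the Col4a2 window chr8:11312555-11312854 on the plus strand. The 2 start sites lay 21 bases apart, so that the windows share 78 bases. The Col4a5 window (chrX:141475169-141475468, plus strand) and the Col4a6 window (chrX:141474027-141474326, minus strand) share none, with start sites 1343 bases apart. The Col1a2 window is chr6:4505368-4505667 and the Col3a1 window chr1:45311288-45311587, both on the plus strand. CCAAT was found once each in the Col4a1, Col4a2 and Col4a5 windows and at 2 places in that of Col1a2, TATAAA only in that of Col3a1, and GGGCGG in 5 of the 6, the exception being Col3a1. GC content was 74.0% for Col4a1, 73.7% for Col4a2, 61.0% for Col1a2, 52.7% for Col4a5, 48.3% for Col4a6 and 37.7% for Col3a1. The promoter table held 38 windows of 35 collagen genes. On both strands, CCAAT was in 13 of them (34.2%, against 37.4% of all 32851 windows of the same length), TATAAA in 5 (13.2%, against 13.6%) and GGGCGG in 23 (60.5%, against 35.7%). A match is a run of letters and was not tied to the binding of a factor. Whether promoter distance plays a part in the ratios was not tested.

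The samples had between 17570335 and 18373707 reads on the listed genes, and collagen chains took 0.789%, 0.838% and 0.959% of them in control and 1.11%, 0.837% and 0.973% in AKO iWAT. Nrg4 itself was at 3128, 3102 and 3092 normalized counts in control and 2577, 2627 and 2691 in AKO iWAT. The table gives totals per gene, so the deleted exons were not measured on their own. The 5 beige adipocyte markers (Ucp1, Cidea, Dio2, Elovl3, Cox7a1) summed to between 24162 and 35453 in the control and between 9002 and 12332 in the AKO samples. The 6 adipocyte markers were high everywhere, with sums from 329518 to 353021 in control and from 296016 to 324099 in AKO iWAT. The sums of the endothelial list were 16646 to 17901 in control and 15373 to 17611 in AKO, those of the smooth muscle and pericyte list 7756 to 8717 and 7775 to 9162 and those of the Schwann cell list 6011 to 7186 and 5309 to 7126. Other tissue was present to different degrees. The 9 skeletal muscle genes summed to 137, 19728 and 11123 in the control and 14527, 55560 and 85625 in the AKO samples. The 6 lymphocyte genes summed to 824, 170 and 139 in the control and 170, 1146 and 116 in the AKO samples. Control 1 and AKO 2 stood apart, with B cell and T cell genes highest in these samples. In bulk tissue, fewer cells of a type and less RNA per cell cannot be told apart.

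None of the 34 chains tested passed the threshold. The test was limma on the log2(normalized count + 1) scale with Benjamini-Hochberg adjustment over all 13855 genes, and adjusted p-values of the chains lay between 0.505 and 0.981. Over all genes, 2 passed (0.0144%). Of the 5 beige adipocyte markers, 1 passed by the same test (Elovl3), while Ucp1, at a log2 fold change of -1.75, had an adjusted p of 0.0703 (limma). Before adjustment, limma gave p under 0.05 to 1 chain that was lower in AKO iWAT (Col27a1), where 4.69% of all genes were lower by that rule, and to 0 that were higher, where 4.41% of all genes were. DESeq2 on the reads recovered from the normalized counts called 149 of 14923 genes (0.998%), 5 of the 5 beige adipocyte markers and 0 chains. It gave 2 chains, Col14a1 and Col27a1, p under 0.05 before adjustment, as it did 6.25% of all genes. Most differences nevertheless lay on 1 side: 27 of the 34 chains (79.4%) had a log2 fold change above 0, that is a higher mean in AKO iWAT, against 51.9% of all genes tested. The median log2 fold change was 0.15 over the chains and 0.01 over all genes. When single samples were left out, the share ranged from 61.8% without AKO 1 to 82.4% without control 3 or AKO 2, and the chains with p under 0.05 before adjustment from 0 without control 2 or AKO 3 to 5 without AKO 2, where 7.9% of all genes reached that p. Chains share cells and samples and are not independent of each other, so these shares carry no test.

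**Figure D1:**
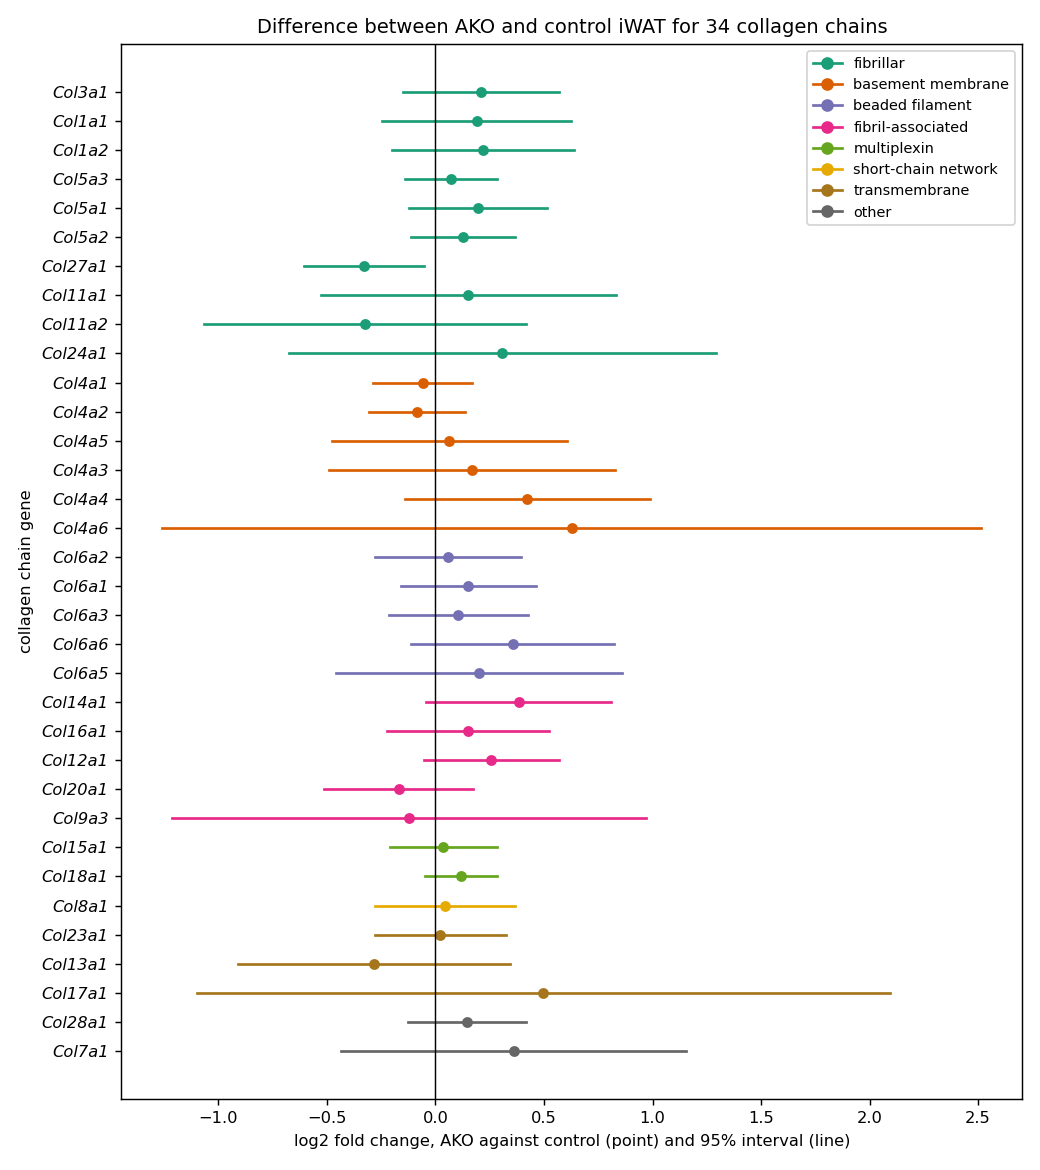
Log2 fold change of AKO against control iWAT (horizontal axis) for the 34 collagen chains tested, ordered by class and by abundance within it (vertical axis), with points for the estimate and lines for the 95% interval from limma. Points of 27 chains lie right of 0, and the interval leaves out 0 for Col27a1 alone, at an adjusted p of 0.505 (limma).

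As a class, fibrillar chains were the most abundant collagen transcripts. Per kilobase of the longest coding transcript, Col3a1 stood at 6708 ± 1130 normalized counts (SD, n = 6 over both groups), Col1a1 at 3896 ± 744 and Col1a2 at 3768 ± 707. The order of single chains depends on the length used. With all exon bases as length, Col1a2 stood at 1622, below Col4a1 at 2931 and Col4a2 at 2341. Col3a1 encodes the only chain of type III collagen, a homotrimer of fine fibrils in elastic tissues, and lies on chromosome 1 (45311538 to 45349706, plus strand, GRCm38). Its normalized counts, not divided by length, were 29721, 32784 and 41435 in control and 46827, 34233 and 38936 in AKO iWAT. The groups overlapped, with control 3 above AKO 2 and AKO 3. The log2 fold change was 0.21 (95% interval -0.15 to 0.57, adjusted p = 0.747, limma).

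Col1a1 and Col1a2 encode the chains of type I collagen, which joins 2 alpha-1 chains to 1 alpha-2 chain and is the bulk of most connective tissue. Col1a1 (chromosome 11, 94936224 to 94953042) was at 16633, 22493 and 25712 normalized counts in control and 27226, 19321 and 27227 in AKO iWAT. Col1a2 (chromosome 6, 4504814 to 4541544) was at 14287, 18998 and 22872 in control and 24586, 17991 and 22162 in AKO iWAT. In both genes control 1 was the lowest of all samples, and AKO 2 was the lowest of its group and below 2 of the control samples. The log2 fold changes were 0.19 (95% interval -0.24 to 0.63) for Col1a1 and 0.22 (-0.20 to 0.64) for Col1a2, with limma adjusted p-values of 0.824 and 0.776. They became 0.01 and 0.04 without control 1, and 0.36 and 0.34 without AKO 2.

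Type V chains join type I fibrils as minor components that limit fibril diameter. Col5a3 was the most abundant of them at 7012, 7150 and 6903 normalized counts in control and 8401, 7275 and 6581 in AKO iWAT. Col5a1 was at 3654, 4529 and 4911 in control and 5758, 4263 and 4991 in AKO, and Col5a2 at 2785, 2888 and 3276 in control and 3678, 2864 and 3257 in AKO. AKO 1 was the highest sample for all 3 genes, and the groups overlapped in each. Their log2 fold changes were 0.07 (95% interval -0.14 to 0.28), 0.20 (-0.12 to 0.51) and 0.13 (-0.11 to 0.37).

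Col27a1, a fibrillar collagen known from cartilage, was the chain with the smallest p. Its normalized counts were 361, 471 and 432 in control iWAT and 357, 348 and 299 in AKO iWAT (chromosome 4, 63214004 to 63334991, plus strand). The groups did not overlap, with AKO iWAT lower, but AKO 1 and control 1 were nearly level. Without overlap, AKO samples lay below control in 8.31% of all genes tested and above in 6.14%, and among the chains 1 lay below (Col27a1) and 1 above (Col12a1). The log2 fold change of Col27a1 was -0.33 (SE 0.12, 95% interval -0.61 to -0.05, adjusted p = 0.505, limma). Its log2 fold change stayed below 0 in all 16 settings run, from -0.46 to -0.24, and p before adjustment was under 0.05 in 13 of them, with the exceptions among the fits that left out a single sample.

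The remaining fibrillar chains were scarce. Col11a1 and Col11a2, chains of the type XI collagen of cartilage fibrils, ranged from 22.6 to 45.9 and from 15.4 to 36.1 normalized counts over the 6 samples. Col24a1, a chain known from bone, ranged from 8.60 to 23.4. Their log2 fold changes were 0.15, -0.32 and 0.31, each with an interval reaching past 0 on both sides. Col2a1, the defining chain of cartilage, had 7 reads in all and was not tested. As a class, 8 of the 10 fibrillar chains tested had a log2 fold change above 0, with a median of 0.17. That median was 0.07 without control 1 and 0.28 without control 3.

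**Figure D2:**
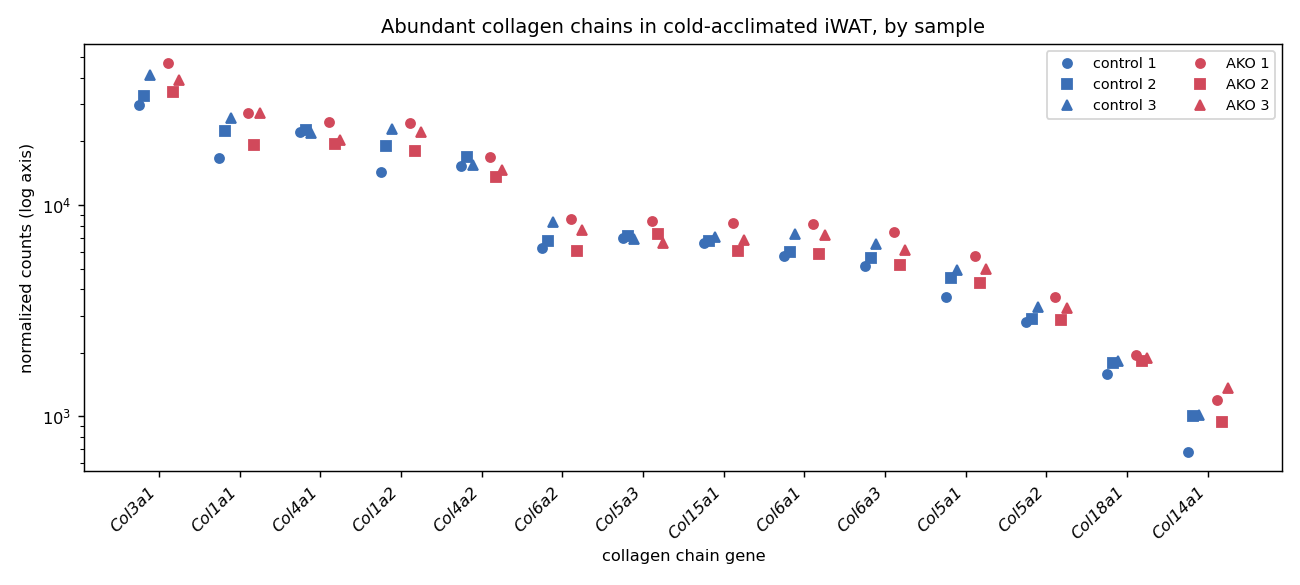
Normalized counts on a log axis (vertical) of the 14 collagen chains with a mean of at least 1000 (horizontal, by mean), with 1 point per sample, control in blue and AKO in red. Control and AKO points overlap in every one of the 14 chains, and in 12 of them control 1 and AKO 2 are the lowest points of their groups.

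Basement membrane chains were the next most abundant. Col4a1 and Col4a2 encode the chains of the common type IV trimer of capillary and adipocyte basement membranes. Col4a1 (chromosome 8, 11198423 to 11312826, minus strand) was at 22285, 22678 and 21850 normalized counts in control and 24702, 19494 and 20269 in AKO iWAT. Col4a2 (chromosome 8, 11312805 to 11449287, plus strand) was at 15299, 16947 and 15525 in control and 16939, 13547 and 14713 in AKO. AKO 2 and AKO 3 lay below all control samples in both genes, while AKO 1 lay above all control samples in Col4a1 and just under control 2 in Col4a2. The log2 fold changes were -0.06 (95% interval -0.29 to 0.17) and -0.08 (-0.31 to 0.14), with limma adjusted p-values of 0.910 and 0.847. Of the 14 chains that averaged 1000 normalized counts or more, these were the 2 with a log2 fold change below 0. For Col4a1 the sign turned to 0.01 without control 1 and AKO 2, so no direction is given for it. The 2 genes share 22 bases of annotated exon at their start sites.

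The other type IV chains were far scarcer. Col4a3 and Col4a4 form, with Col4a5, the trimer best known from the kidney's filtration barrier. Col4a3 ranged from 51.6 to 109 normalized counts and Col4a4 from 45.2 to 86.4, and AKO 1 was the highest sample for both. Their log2 fold changes were 0.17 and 0.42, the latter with a 95% interval of -0.14 to 0.99. Col4a3 shares 5.65% of its exon bases with a gene on the opposite strand, and whether counting used strand is not given in the sources used here. Col4a5, which also pairs with Col4a6 in another trimer of epithelial and smooth muscle basement membranes, was at 146, 125 and 244 in control and 157, 169 and 192 in AKO iWAT (log2 fold change 0.06).

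Col4a6 varied more between samples of 1 group than any other chain tested, together with Col17a1, which encodes the transmembrane collagen of the hemidesmosomes that fix epithelial cells to their basement membrane. Col4a6 was at 35.1, 5.38 and 52.9 normalized counts in control and 17.3, 73.2 and 32.8 in AKO iWAT. Col17a1 was at 35.1, 7.53 and 45.7 in control and 16.3, 59.6 and 37.6 in AKO. For both genes control 2 was the lowest and AKO 2 the highest of the 6 samples. The log2 fold changes, 0.63 (SE 0.82) for Col4a6 and 0.50 (SE 0.69) for Col17a1, were smaller than their standard errors.

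Epithelial genes varied in the same way. Epcam, an epithelial adhesion protein, was at 72.3, 0 and 166 normalized counts in control and 18.2, 265 and 81.0 in AKO iWAT. The luminal keratin gene Krt8 was at 62.2, 0 and 123 in control and 15.4, 198 and 70.4 in AKO, and the basal keratin gene Krt5 at 64.2, 0 and 97.6 in control and 10.6, 168 and 58.8 in AKO. Epcam, Krt8, Krt5 and Krt14 had no reads in control 2. The order of the 6 samples was identical for Epcam, Krt8, Krt18 and Col17a1, and identical for Krt5, Cdh1 and Col4a6. Krt14 matched neither order and was highest in control 3. The sum of the 6 epithelial markers ranged from 24.7 to 951 in control and from 148 to 1433 in AKO iWAT, and 6 of the 6 were detected in the other 5 samples. Inguinal fat of the mouse can hold mammary ducts. These genes were set side by side after their values were seen, and the part of epithelium in the counts of Col4a6 and Col17a1 was not tested.

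**Figure D3:**
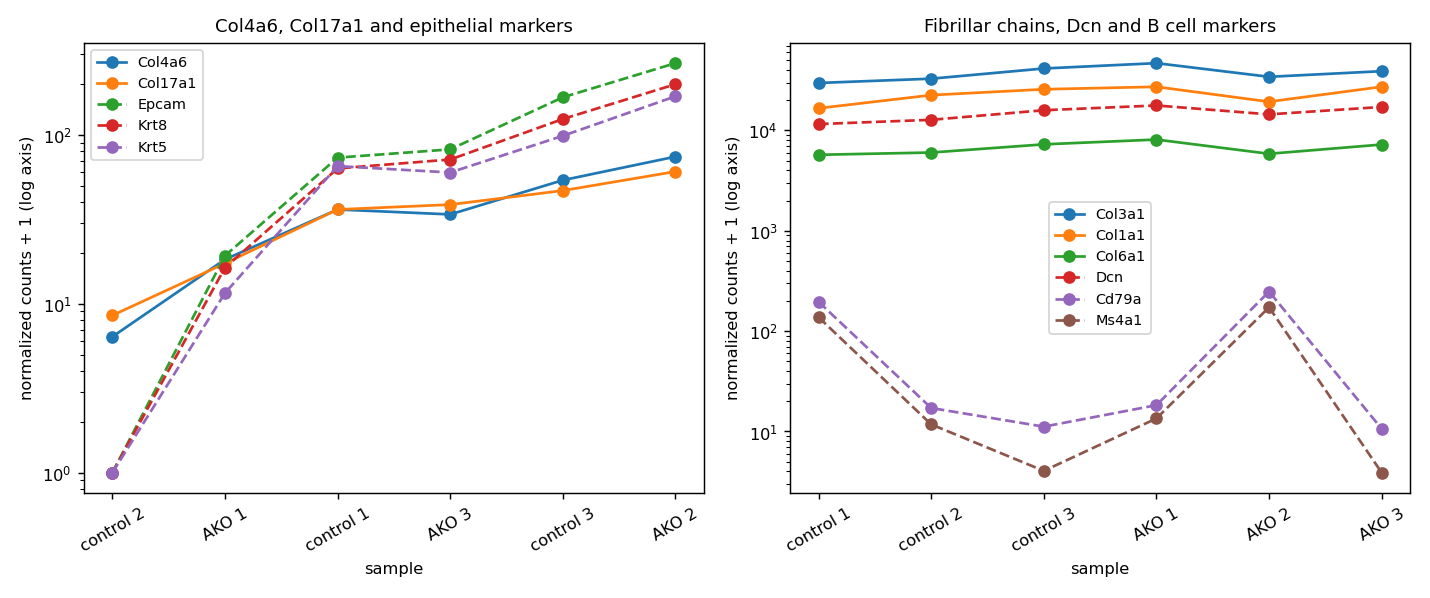
Normalized counts plus 1 on log axes (vertical) in each of the 6 samples (horizontal), with lines only joining the points of 1 gene. The left panel sets Col4a6 and Col17a1 beside 3 epithelial genes with samples in the order of Col17a1, where all 5 are lowest in control 2 and highest in AKO 2, and the right panel sets 3 abundant chains beside Dcn and the B cell genes Cd79a and Ms4a1, which peak in control 1 and AKO 2.

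Beaded filament chains were the third class by amount per length. Col6a1, Col6a2 and Col6a3 encode the 3 chains of the common type VI trimer, which surrounds adipocytes. Col6a1 was at 5717, 6023 and 7266 normalized counts in control and 8109, 5852 and 7232 in AKO iWAT (chromosome 10, 76708792 to 76726168). Col6a2 was at 6278, 6785 and 8314 in control and 8606, 6076 and 7652 in AKO, and Col6a3 at 5166, 5593 and 6561 in control and 7432, 5203 and 6114 in AKO. AKO 1 was the highest sample for each of the 3 chains, and control 3 was the second highest. The log2 fold changes were 0.15 (95% interval -0.16 to 0.46), 0.06 (-0.28 to 0.40) and 0.11 (-0.21 to 0.43), with limma adjusted p-values of 0.795, 0.945 and 0.877. Col6a5 and Col6a6, relatives of Col6a3 that can take its place, ranged from 21.2 to 38.1 and from 50.2 to 91.6 normalized counts. Col6a6 had a log2 fold change of 0.36 (95% interval -0.11 to 0.82). Col6a4 was at 22.5 in AKO 2 and at 6.02 or less elsewhere, with 35 reads in all, and was not tested.

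Fibril-associated collagens sit on the surface of type I fibrils. Col14a1 was the most abundant of them at 678, 1008 and 1010 normalized counts in control and 1193, 940 and 1368 in AKO iWAT. It had the largest log2 fold change among the 14 chains with a mean of at least 1000, at 0.38 (SE 0.18, 95% interval -0.04 to 0.81), with an adjusted p of 0.585 from limma. Only AKO 2 lay within the control range, and the log2 fold change was 0.19 without control 1 and 0.53 without AKO 2. Col12a1, a related chain of tendon and muscle sheaths, was at 156, 151 and 147 in control and 161, 219 and 168 in AKO iWAT. Its AKO samples lay above control without overlap, AKO 1 by only a few counts, and the log2 fold change was 0.26 (95% interval -0.05 to 0.57, adjusted p = 0.615, limma). The SD of its control samples (4.11) was below the counting error expected at their mean (12.3), so that this SD understates the error. Without AKO 2, the sample with its highest count, the log2 fold change was 0.12.

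Col16a1 ranged from 184 to 281 normalized counts and Col20a1 from 59.8 to 81.7, with log2 fold changes of 0.15 and -0.17. Col9a3, a chain of cartilage fibril surfaces, ranged from 6.02 to 16.3 and shares 6.07% of its exon bases with Tcfl5 on the opposite strand. Col22a1 had 23 reads in all, at 1.0, 3.23 and 1.02 normalized counts in control and 7.68, 5.86 and 3.86 in AKO. The groups did not overlap, but a few reads decide each value and the gene was not tested. Col9a2 and Col19a1 had 41 and 28 reads in all.

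The multiplexins Col15a1 and Col18a1 encode collagens of basement membrane zones, and the end of the Col18a1 protein is released as endostatin. Col15a1 was as abundant as the type VI chains, at 6606, 6750 and 7100 normalized counts in control and 8211, 6076 and 6843 in AKO iWAT. Col18a1 was at 1589, 1783 and 1834 in control and 1945, 1824 and 1879 in AKO. Relative to its mean, Col18a1 had the smallest spread of the 14 abundant chains over all 6 samples, per kilobase 323 ± 21.7 (SD, n = 6). Its log2 fold change was 0.12 (95% interval -0.05 to 0.29) and that of Col15a1 0.04 (-0.21 to 0.28).

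Among the remaining chains, Col28a1, a collagen known from nerve, was at 179, 180 and 165 normalized counts in control and 194, 170 and 217 in AKO iWAT. Col8a1, a short-chain collagen of vessel walls, ranged from 107 to 146. The transmembrane chains Col23a1 and Col13a1 ranged from 101 to 130 and from 31.2 to 63.4. Col7a1, the anchoring fibril chain below stratified epithelia, was at 35.1, 35.5 and 33.5 in control and 25.0, 66.4 and 54.0 in AKO. None of these 5 chains passed the test, with limma adjusted p-values from 0.772 to 0.981. Col10a1, a chain of growth cartilage, had 51 reads, Col26a1 45, Col8a2 35 and Col25a1 9 in all, and these were not tested.

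Summed per kilobase over all 43 chains, the control samples reached 23784, 27014 and 30396 and the AKO samples 33591, 25177 and 29456 normalized counts. The highest and the lowest of the AKO samples enclosed 2 of the control samples. Fibrillar chains took 54.2%, 57.2% and 60.3% of the sum in control and 60.4%, 59.4% and 60.9% in AKO iWAT. Basement membrane chains took 24.3%, 22.5% and 19.0% in control and 19.1%, 20.2% and 18.3% in AKO. The fibrillar share was lowest, and the basement membrane share highest, in control 1 and control 2, while control 3 lay among the AKO samples. Beaded filament chains took from 12.9% to 13.9% and multiplexins from 5.59% to 6.56%. Fibril-associated chains took from 0.731% to 1.01%. These shares rest on the length of the longest coding transcript.

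**Figure D4:**
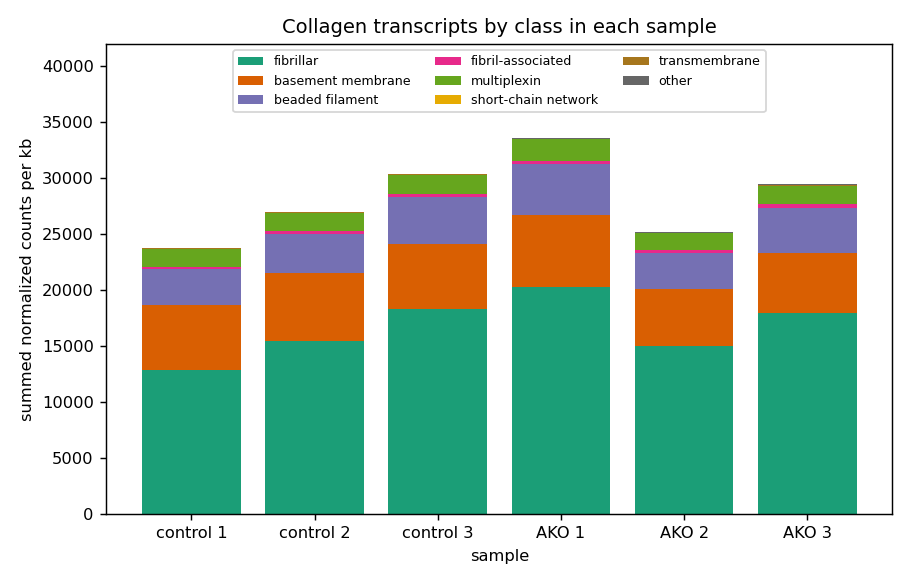
Normalized counts per kilobase of transcript summed over the chains of each collagen class (stacked bars, vertical axis from 0) in each sample (horizontal axis). Fibrillar chains form the largest block, from 12879 in control 1 to 20274 in AKO 1, while the basement membrane block stays between 5095 and 6408.

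For the 6 pairs of partner chains compared, the ratio varied less over the samples than the counts of either chain. Per kilobase, the ratio of Col4a1 to Col4a2 was 1.42, 1.30 and 1.37 in control and 1.42, 1.40 and 1.34 in AKO iWAT, a spread of 1.09 between the highest and the lowest sample. The spread was 1.10 for Col6a1 to Col6a2 and for Col6a3 to Col6a1, 1.14 for Col1a1 to Col1a2, 1.20 for Col5a1 to Col5a2 and 1.25 for Col3a1 to Col1a1. Col6a3 and Col6a1, like Col1a1 and Col1a2, lie on different chromosomes. A part of the overlapping Col4a1 and Col4a2 promoters in their ratio was not tested. The ratio of Col1a1 to Col1a2 was 1.05, 1.07 and 1.01 in control and 0.999, 0.969 and 1.11 in AKO. That value lies near 1, while the type I trimer joins its chains in unequal number, and it depends on the transcript length chosen, since with all exon bases the mean ratio over the 6 samples was 2.17 in place of 1.03. Col3a1 to Col1a1 was 1.90, 1.55 and 1.72 in control and 1.83, 1.89 and 1.52 in AKO, and its mean was 1.09 in place of 1.74 by that other length. Col5a1 to Col5a2 was 1.03, 1.24 and 1.18 in control and 1.23, 1.17 and 1.21 in AKO, and its mean was 1.69 in place of 1.18 by that other length.

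Within type VI collagen, Col6a1 to Col6a2 was 1.03, 1.01 and 0.992 in control and 1.07, 1.09 and 1.07 in AKO iWAT. With all exon bases as length, the mean ratio over the 6 samples was 1.75 in place of 1.04. Every AKO sample lay above every control sample, by a log2 difference of 0.09 in the means, at an exact 2-sided permutation p of 0.1, the smallest that 3 against 3 samples can give, and 0.6 after adjustment over the 6 pairs compared. Col6a3 to Col6a1 was 0.367, 0.377 and 0.366 in control and 0.372, 0.361 and 0.343 in AKO. The exact permutation p-values of the other 5 pairs were between 0.3 and 1.0, and 0.84 or 1.0 after adjustment. The ratio of Col4a5 to Col4a6 was 4.21, 23.6 and 4.69 in control and 9.21, 2.35 and 5.95 in AKO, a spread of 10.1 between the highest and the lowest sample. The highest was control 2, which had no Epcam, Krt8 or Krt5 reads. In that sample Col4a6 was at 5.38 normalized counts, where 1 read was worth 1.08, so that a few reads decide the ratio. Col4a3 to Col4a4, with gene ends 72 bases apart, ranged from 0.961 to 1.99, a spread of 2.07.

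**Figure D5:**
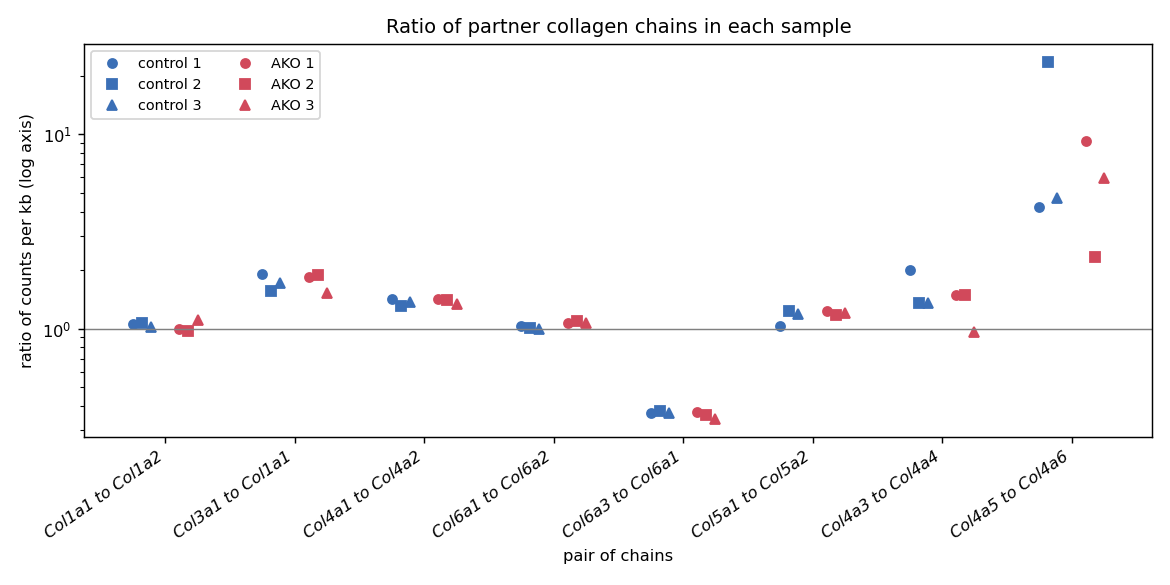
Ratio of normalized counts per kilobase (log axis, vertical) for 8 pairs of chains (horizontal), with 1 point per sample, control in blue and AKO in red and a grey line at a ratio of 1. The Col4a1 to Col4a2 points lie between 1.30 and 1.42, while the Col4a5 to Col4a6 points reach from 2.35 to 23.6.

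Much of the variation of the abundant chains ran between samples of 1 genotype. Control 1 and AKO 2 were each the lowest of their group for 12 of the 14 chains with a mean of at least 1000 (85.7%) and for 15 of all 34 tested (44.1%), against 19.7% of the 3033 genes of that abundance and 14.8% of all genes tested. The chains move together within a sample, so this is a description, noticed after the values were seen. These 2 samples were also those with the most B cell and T cell RNA. Cd79a, a signaling subunit of the B cell receptor, was at 195, 16.1 and 10.2 normalized counts in control and 17.3, 247 and 9.64 in AKO iWAT, and Ms4a1 at 136, 10.8 and 3.05 in control and 12.5, 172 and 2.89 in AKO. The part of lymphoid tissue in the collagen counts was not tested. Without both samples (an alternative added after the data were seen), 25 of 34 chains had a log2 fold change above 0, the median was 0.12, 0 chains passed the threshold and 3 had p under 0.05 before adjustment in limma. Of all genes tested, 9.57% reached that p in the same fit. The chains were Col14a1 with a log2 fold change of 0.34, Col4a4 with 0.67 and Col27a1 with -0.46.

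Fibroblast genes varied over the samples much as the fibrillar chains did. The 8 markers of fibroblasts and adipocyte progenitors summed to 23309, 27984 and 31373 normalized counts in control and 37049, 29089 and 35614 in AKO iWAT, with 0 of the 8 at 0 in any sample. Control 1 and AKO 2 were again the lowest of their groups. Dcn, which encodes the fibril-binding proteoglycan decorin, was at 11575, 12758 and 15896 in control and 17733, 14453 and 17147 in AKO (log2 fold change 0.30, adjusted p = 0.549, limma). Pdgfra, a receptor of progenitors, was at 1139, 1107 and 1273 in control and 1508, 1314 and 1458 in AKO (0.28, adjusted p = 0.414, limma). Dpp4, a progenitor surface peptidase, was at 583, 832 and 727 in control and 1090, 944 and 1117 in AKO (0.57, adjusted p = 0.315 in limma and 0.00844 in DESeq2). Of the 8 markers, 7 had a log2 fold change above 0 and 1, Pdgfrb, was below. Pdgfrb was at 1915, 2156 and 1982 in control and 2069, 1904 and 2008 in AKO (-0.02, adjusted p = 0.970, limma). The 6 macrophage markers summed to 7876, 8671 and 10923 in control and 12978, 9745 and 12949 in AKO. The part of these cells in the collagen differences was not tested.

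The proteins that fold, bind, sense and degrade collagen were read from a list of 49 other matrix genes, of which 48 were tested and Mmp13 was too scarce. Of these, 36 had a log2 fold change above 0 (75.0%, median 0.16), against 51.9% of all genes. Before adjustment, 5 (Pcolce2, Lum, Mmp3, Mmp14 and Ddr2) were higher in AKO iWAT by limma with p under 0.05, where 4.41% of all genes were, and 0 were lower, where 4.69% were, and 0 passed the threshold after adjustment. The 5 became 2 without control 1 or AKO 3, 3 without AKO 1, 15 without control 3 and 18 without AKO 2. Of all 13855 genes, 650 were lower and 611 higher at that p with all samples. The lower and higher genes numbered 787 and 589 without control 1, 627 and 689 without control 3 and 484 and 517 without AKO 1. They numbered 488 and 606 without AKO 2 (7.9% in all) and 526 and 328 without AKO 3. DESeq2 called 1 of the 48, Pcolce2, and 0.998% of all genes.

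Among procollagen folding and trimming genes, the median log2 fold change was 0.16 over 10 genes. Pcolce2, an enhancer of procollagen C-proteinase, was at 606, 787 and 882 normalized counts in control and 1190, 931 and 1259 in AKO iWAT. All AKO samples lay above all control samples, and the log2 fold change was 0.58 (95% interval 0.21 to 0.94, adjusted p = 0.386 in limma and 0.0233 in DESeq2). Serpinh1, which encodes the collagen chaperone HSP47, was at 5226, 7443 and 6929 in control and 7311, 6723 and 6758 in AKO. P4hb, the protein disulfide isomerase subunit of prolyl hydroxylase, was at 4152, 4425 and 4389 in control and 4706, 4479 and 4768 in AKO.

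Among 10 fibril-binding genes the median was 0.26. Dcn was the most abundant, and Lum, which encodes lumican, was at 1533, 1525 and 1838 in control and 2027, 1779 and 1868 in AKO (log2 fold change 0.22, adjusted p = 0.539, limma). Fn1, which encodes fibronectin, was at 5629, 10229 and 10670 in control and 13498, 8174 and 12095 in AKO. Control 1 and AKO 2 were the lowest of their groups for Fn1 as for the fibrillar chains.

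Among 9 tested genes of collagen breakdown and its inhibitors the median was 0.27. Mmp3, which encodes stromelysin, was at 323, 469 and 420 in control and 543, 544 and 643 in AKO iWAT (log2 fold change 0.52, adjusted p = 0.374, limma). Mmp14, the membrane-bound collagenase, was at 1140, 1336 and 1392 in control and 1867, 1395 and 1566 in AKO (0.31, adjusted p = 0.515, limma). Both were without overlap between the groups. The inhibitor genes Timp2 and Timp3 were the most abundant of this group, with log2 fold changes of 0.36 and 0.18 and adjusted p-values of 0.552 and 0.628 (limma).

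Among 8 receptor genes the median was 0.09. Ddr2, a receptor tyrosine kinase for fibrillar collagen, was at 1778, 2052 and 1964 in control and 2357, 2109 and 2658 in AKO iWAT (log2 fold change 0.29, adjusted p = 0.473, limma). Itgb1, the common beta subunit of the collagen-binding integrins, ranged from 6055 to 6224 over all samples. Among the 11 basement membrane partners, the laminins, nidogens, perlecan and agrin, the median was -0.02, and 0 of them had p under 0.05. Sparc, a collagen-binding protein and the most abundant of that group, was at 52521, 59646 and 61640 in control and 61578, 49770 and 54880 in AKO, and Hspg2, which encodes perlecan, at 15758, 17076 and 16481 in control and 16006, 13638 and 15534 in AKO.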

How the data were processed

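RNA-Seq was analysed in iWAT of 3 control and 3 AKO samples, grouped by the genotype in their labels. The authors ran STAR on the reads with GRCm38.p6 (mm10) as genome, featureCounts with GENCODE M25 for gene counts, and DESeq2. The deposited signal is the read count of a gene divided by a size factor, without division by length. How the listed genes were filtered and whether counting used strand are not given in the sources used here. Beside it the authors deposited log2 fold changes and p-values of their own comparison, which were not used.

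Because these values are normalized and not raw counts, limma (version 3.58.1, R 4.3.3) was run on log2(value + 1) with a variance trend, over 13855 genes (mean at or above 10) with Benjamini-Hochberg adjustment. The threshold was an adjusted p of 0.05. Within a sample, all values were multiples of what 1 read is worth. Dividing by it gave whole reads for 100% of the values (tolerance 0.01), and edgeR (4.0.16) and DESeq2 (1.42.0) were run on these reads as alternatives. Samples had 17570335 to 18373707 reads. Within each group, chi-square divided by its degrees of freedom was 9.86 to 20.1 for pairs of samples, above sampling noise, and all 6 were kept. Ratios of chains were compared by an exact 2-sided permutation test.

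Positions and lengths came from GENCODE M21 (GRCm38), in which 15894 of the 16538 symbols (96.1%) and 43 of the 43 chains were found. Length was that of the longest coding transcript. Every chain with a mean of at least 10 is named. Chains with a mean of at least 1000, with p under 0.05 or without overlap got a fold change with its error, a choice made after values were seen. Matrix genes are named where p was under 0.05 before adjustment or where they are the most abundant of their group. The members and lists were chosen with earlier results of these data known. The tests were tested on simulated data with known changes. Alternatives were other pseudocounts (0.1 and 10), no filter or a mean of at least 50, TMM factors, edgeR, DESeq2, a replicate block and leaving out samples. Protein sequences were not used here, and 1 marker gene is not reported here.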

Additional observations from a re-analysis of the deposited data

How the results depend on the processing

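No collagen chain passed the threshold in any of the 16 settings, including limma, edgeR and DESeq2, and the median log2 fold change of the chains stayed above 0, from 0.06 to 0.22 when each sample in turn was left out. The count of chains with p under 0.05 before adjustment, 1 with all samples, was 2 without a filter (Col22a1 and Col27a1) and 2 in DESeq2. It was 0 to 5 when single samples were left out, with 0 without control 2 or without AKO 3, 2 without AKO 1 and 5 without AKO 2. It was 3 without control 1 and AKO 2, an alternative added after seeing the data. Over all genes, the 2 past the threshold became 4 with a mean of at least 50, 149 in DESeq2, 0 to 3 with single samples left out (0 for each but control 2) and 0 without control 1 and AKO 2. Other matrix genes with p under 0.05 numbered 5, against 10 in edgeR, 10 in DESeq2, 2 to 18 with single samples left out (2 without control 1 or AKO 3, 3 without AKO 1, 15 without control 3, 18 without AKO 2) and 12 without control 1 and AKO 2. With a replicate block they numbered 11, while 1 chain had p under 0.05 and 2 genes in all passed the threshold. Of all genes, 568 were lower and 716 higher at p under 0.05 in edgeR, and 665 and 696 with the block. In DESeq2 6.25% of all genes reached that p, and 9.57% did without control 1 and AKO 2. The counts over all genes with single samples left out are given with the matrix genes above. Deviations of same-numbered samples correlated at 0.14, -0.35 and 0.24, and whether such samples share more than a number cannot be told from so few pairs. Among the 14 chains with a mean of at least 1000, some log2 fold changes crossed 0 with single samples left out. These were Col6a2 (-0.0533 to 0.198), Col15a1 (-0.0800 to 0.137), Col5a3 (-0.0210 to 0.155), Col6a3 (-0.0265 to 0.231) and Col4a1 (-0.164 to 0.00698). Col4a1 was also at 0.00752 without control 1 and AKO 2. Scarcer chains crossed 0 over the settings as well, such as Col16a1 (-0.0472 to 0.257), Col4a3 (-0.132 to 0.497) and Col4a5 (-0.133 to 0.349). Col4a6, Col6a5, Col8a1, Col9a3, Col11a1, Col13a1, Col17a1 and Col23a1 did so too. The log2 difference between genotypes in a ratio crossed 0 for Col1a1 to Col1a2 (-0.0856 to 0.0115), Col3a1 to Col1a1 (-0.0551 to 0.114), Col4a1 to Col4a2 (-0.00736 to 0.0539) and Col5a1 to Col5a2 (-0.00446 to 0.124). For the other chains with a mean of at least 1000 the sign held in all 16 settings. The range was 0.0898 to 0.346 for Col3a1, 0.0141 to 0.356 for Col1a1, 0.0380 to 0.377 for Col1a2 and 0.193 to 0.531 for Col14a1. It was 0.0745 to 0.307 for Col5a1, 0.0375 to 0.218 for Col5a2 and 0.0460 to 0.281 for Col6a1. For Col18a1 it was 0.0575 to 0.161 and for Col4a2 -0.172 to -0.0109. The share of chains with a log2 fold change above 0 was lowest without AKO 1 (61.8%) and highest without control 3 or AKO 2 (82.4%). The cause of these shifts was not tested. With 3 pools a group, log2 differences under about the half-width of the intervals could not be resolved. Larger differences could miss the threshold as well, since the intervals were not adjusted for the number of genes tested. Ucp1, at a log2 fold change of -1.75 (interval -2.22 to -1.27), missed it with an adjusted p of 0.0703 (limma). Elovl3, at -1.64 (interval -1.99 to -1.29), passed with an adjusted p of 0.0350 (limma).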
